A study of Homo sapiens with 2 samples.

Results

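The mitochondrially encoded genes are the 37 genes of the human mitochondrial chromosome, found here as every gene of the deposited table whose symbol starts with MT-, out of 58698 genes in all. They comprise 13 protein-coding genes, 2 rRNA genes and 22 tRNA genes, and all 37 lie on the mitochondrial chromosome in the annotation (GENCODE release 29, GRCh38) and inside the locus that the table gives for them. The series sequenced total RNA of 2 samples of MIA PaCa-2, a human cell line derived from a pancreatic carcinoma. The sgTPST2 sample is labelled as a TPST2 knockdown, and the sgGFP sample, labelled wild type, carries a guide against GFP, a jellyfish protein that human cells lack. TPST2 encodes a Golgi enzyme that sulfates tyrosines of secreted and membrane proteins. Whether either sample is a clone or a pool of cells is not given in the labels. Each condition was 1 library, so no difference below was tested, none can be set against a spread between replicates, and the intervals given cover counting error only.

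Human mitochondrial DNA is a small circle transcribed on both strands into long precursors. Most genes are read from the heavy strand, and tRNAs that lie between the rRNAs and mRNAs are cut out to release them. The 13 proteins are core subunits of the respiratory chain: 7 belong to complex I (NADH dehydrogenase), 1 to complex III, 3 to complex IV (cytochrome c oxidase) and 2 to complex V (ATP synthase), and every other subunit is encoded in the nucleus. The rRNAs build the mitochondrial ribosome, and the tRNAs serve it. Of the 37 genes, 28 are annotated on the + strand (read from the heavy strand) and 9 on the - strand (MT-ND6 and 8 tRNAs).

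The table's header names no unit. Values were read as FPKM (fragments divided by transcript length and by library size), because the processing notes name Cuffdiff, which reports that unit, and levels are compared between genes on that reading. From the size of the steps between low values, 1 FPKM stood for 47.8 fragments per kb of transcript in sgTPST2 and 42.0 in sgGFP. TPST2 itself was at 1.92 FPKM in sgTPST2 and 8.46 FPKM in sgGFP. Of the epithelial markers, KRT8, KRT18 and KRT19 were present in both libraries and lower in sgTPST2 (KRT8 at 41.6 FPKM against 510 in sgGFP), while EPCAM was listed at 0 in both and CDH1 was at 0.0524 FPKM in sgTPST2 and 0 in sgGFP. Of 15 markers of leukocytes, endothelium, fibroblasts, acinar and islet cells, 7 were at 0 in both libraries, and their summed level was 17.4 FPKM in sgTPST2 and 54.1 in sgGFP, mostly COL1A2 and COL3A1. The part of these markers in the results was not tested.

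The mitochondrial mRNAs were lower and the mitochondrial rRNAs higher in sgTPST2. Here mRNA means the annotated transcript of each protein-coding gene, also where such genes overlap and may share an RNA. All 13 mRNAs lay below their sgGFP level, as did 50.0% of all genes at 1 FPKM or more, and both rRNAs lay above it, as did 50.0%. Summed over the 13 mRNAs, the level was 1052 FPKM in sgTPST2 and 1463 FPKM in sgGFP, 1.39-fold lower in sgTPST2. Summed over the rRNAs it was 366 and 285 FPKM, 1.29-fold higher in sgTPST2. The ratio of summed mRNA to summed rRNA was thus 2.87 in sgTPST2 and 5.14 in sgGFP. The mRNAs held 0.105% of the summed values of the table in sgTPST2 and 0.145% in sgGFP, and the rRNAs 0.0366% and 0.0282%. The sums behind these shares are unlike in 1 respect. The authors' table marks 8 genes as too deep to estimate, and these add 87299 FPKM to the sgGFP sum and 0 to that of sgTPST2.

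**Figure D1:**
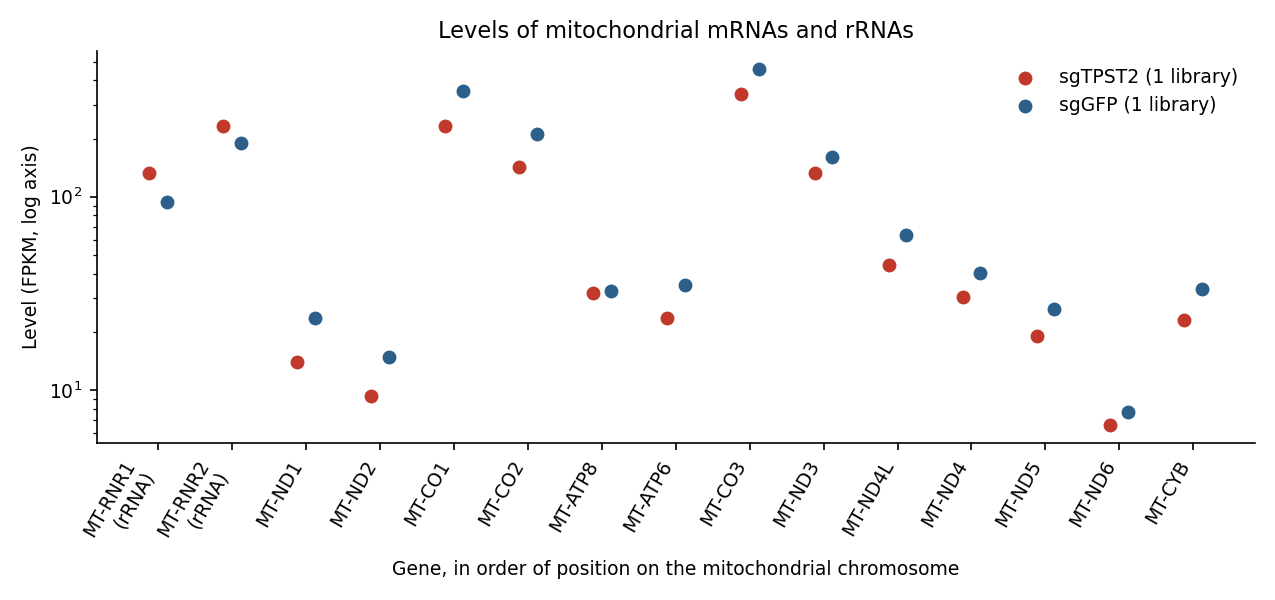
Level of the 13 mitochondrial mRNAs and 2 rRNAs in FPKM (log axis), in order of position, 1 point per library. The rRNAs are higher in sgTPST2, every mRNA is at or below its sgGFP point, and levels within 1 library run from 6.59 FPKM (MT-ND6) to 342 FPKM (MT-CO3) in sgTPST2 and 7.72 to 461 FPKM in sgGFP.

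On the scale log2((sgTPST2 + 1)/(sgGFP + 1)), used for every difference unless stated otherwise, the 13 mRNAs had a median of -0.50 and ranged from -0.72 to -0.02. Over all 13420 genes whose higher value was at least 1 FPKM, the median was 0.00. The 15 mRNAs and rRNAs passed that filter and the 22 tRNAs did not. At least 1.2-fold lower in sgTPST2 were 11 of the 13 mRNAs, against 17.3% of all genes past the filter, and both rRNAs were at least 1.2-fold higher, against 16.2%. At least 1.5-fold lower were 3 of the 13 (MT-ND1, MT-ND2 and MT-CO1), against 6.94%, and 0 members were 1.5-fold higher, against 4.41%. None of the 15 was 2-fold lower (2.93% of all genes past the filter) or 2-fold higher (1.61%). The count of 3 became 2 with both columns scaled to the same upper quartile or sum, with or without the mitochondrial chromosome. It was 7 when they were scaled to the same sum without a chromosome 14 locus that is listed at 0 in sgTPST2. The genes share precursors, so they are not independent of each other. In the authors' deposited table, 0 of the 15 reached q = 0.05, against 0.517% of 18574 tested genes, and 0 reached an unadjusted p of 0.05; the lowest p was 0.0668, for MT-CO1.

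The 3 cytochrome c oxidase mRNAs were the most abundant mitochondrial mRNAs. MT-CO1, which encodes the catalytic subunit that holds the haem and copper centre where oxygen is reduced, was at 234 FPKM in sgTPST2 and 353 FPKM in sgGFP. That is 0.662 of the sgGFP level, with an interval of 0.648 to 0.676 from about 15220 and 20192 fragments. MT-CO2, whose product takes up electrons from cytochrome c, was at 143 and 212 FPKM, or 0.676 of the sgGFP level (0.646 to 0.706). MT-CO3, the third core subunit, was at 342 and 461 FPKM, or 0.741 (0.721 to 0.761), the highest mRNA of both libraries. Together these genes held 68.3% of the summed mRNA level in sgTPST2 and 70.1% in sgGFP. The interval of MT-CO3 does not overlap that of MT-CO1, so within counting error the MT-CO3 mRNA was nearer to its sgGFP level.

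The 7 complex I mRNAs had differences from -0.72 to -0.20. MT-ND1, which forms part of the quinone site, was at 13.9 FPKM in sgTPST2 and 23.7 FPKM in sgGFP, or 0.590 of the sgGFP level (0.526 to 0.660), the lowest ratio of the 13. MT-ND2, a proton-pumping subunit, was at 9.25 and 14.7 FPKM, or 0.629 (0.550 to 0.719). Of the other pumping subunits, MT-ND4 was at 30.1 FPKM in sgTPST2 and 40.4 in sgGFP, or 0.746 (0.700 to 0.796), and MT-ND5 was at 19.0 and 26.1 FPKM, or 0.728 (0.679 to 0.780). Their intervals overlap that of MT-ND2, which by itself does not settle whether these ratios differ, and their order was not tested. The small membrane subunits MT-ND3 and MT-ND4L stood at 132 and 44.5 FPKM in sgTPST2, against 161 and 63.3 FPKM in sgGFP. Their transcripts are 346 and 297 bases long, and no fragment count is given for transcripts under 500 bases. MT-ND6, the 1 mRNA read from the light strand, was the least abundant, at 6.59 FPKM in sgTPST2 and 7.72 FPKM in sgGFP. It rests on about 109 and 112 fragments, and its ratio of 0.854 has an interval of 0.650 to 1.12 that includes 1, so no difference was detectable at this depth. For the other 9 mRNAs of at least 500 bases, the interval lay below 1.

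MT-CYB, the complex III subunit that holds both haem b groups, was at 23.0 FPKM in sgTPST2 and 33.3 FPKM in sgGFP, or 0.690 of the sgGFP level (0.636 to 0.749). Of the 2 ATP synthase genes, MT-ATP6, which forms the proton path through the membrane, was at 23.6 and 35.1 FPKM, or 0.672 (0.602 to 0.751), and MT-ATP8, a short accessory subunit, was at 31.8 FPKM in sgTPST2 and 32.4 FPKM in sgGFP, or 0.983. MT-ATP8 is 207 bases long and ends inside MT-ATP6: 46 of its bases, at the 3′ end, also belong to MT-ATP6. Fragment counts followed transcript length less an offset of 180 bases, which leaves few bases of MT-ATP8, so its level is the least certain of the 13. The sequences below are shown because reads over the shared bases, in capitals, cannot be assigned to 1 gene from sequence alone. They are reference sequences on the + strand of the mitochondrial chromosome (GRCh38): all of MT-ATP8 (chrM:8366-8572), the last 30 bases of MT-ATP6 (chrM:9178-9207), whose final base is also the first of MT-CO3, and the last 30 of MT-ND4L (chrM:10737-10766), of which 7 also belong to MT-ND4.
MT-ATP8: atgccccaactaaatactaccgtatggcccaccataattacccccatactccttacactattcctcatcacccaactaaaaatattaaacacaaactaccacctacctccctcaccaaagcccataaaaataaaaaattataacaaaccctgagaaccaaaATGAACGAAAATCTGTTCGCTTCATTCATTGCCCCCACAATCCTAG
MT-ATP6: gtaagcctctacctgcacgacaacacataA
MT-ND4L: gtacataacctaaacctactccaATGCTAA

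MT-ATP8, MT-ATP6 and MT-CO3 share 1 locus in the table, as do MT-ND4L and MT-ND4. For MT-ATP8 with MT-ATP6, and MT-ND4L with MT-ND4, values per annotated gene cannot show separate RNA molecules. Without MT-ATP8, MT-ATP6, MT-ND4L and MT-ND4, the median of the other mRNAs was -0.52. Although MT-ATP6 and MT-CO3 adjoin on 1 precursor, their levels were far apart in both libraries: MT-CO3 was 14.5-fold above MT-ATP6 in sgTPST2 and 13.1-fold in sgGFP. MT-CO1 stood 25.3-fold above the neighbouring mRNA MT-ND2 in sgTPST2 and 24.0-fold in sgGFP. The order of the 13 levels was nearly the same in both libraries. The 5 highest (MT-CO3, MT-CO1, MT-CO2, MT-ND3, MT-ND4L) and the 4 lowest (MT-ND5, MT-ND1, MT-ND2, MT-ND6) held the same ranks, and MT-ATP8 was 6th in sgTPST2 and 9th in sgGFP. In sgTPST2 the levels of MT-ATP6 (21.7 to 25.6 FPKM) and MT-CYB (21.6 to 24.4 FPKM) overlapped within counting error, as they did in sgGFP (32.6 to 37.7 and 31.5 to 35.1 FPKM).

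Both rRNAs were higher in sgTPST2. MT-RNR1, the 12S rRNA of the small subunit, was at 132 FPKM in sgTPST2 and 93.8 FPKM in sgGFP, or 1.41-fold (1.35 to 1.48). MT-RNR2, the 16S rRNA of the large subunit, was at 234 and 191 FPKM, or 1.22-fold (1.19 to 1.26). The intervals of the ratios do not overlap, and MT-RNR2 stood 1.77-fold above MT-RNR1 in sgTPST2 and 2.03-fold in sgGFP. MT-RNR2 is followed, across 1 tRNA, by MT-ND1, so an rRNA with a ratio above 1 and the mRNA with the lowest ratio lie almost side by side: MT-RNR2 was 16.8-fold above MT-ND1 in sgTPST2 and 8.07-fold in sgGFP. Libraries of this kit are usually depleted of rRNA before sequencing, and whether that was done here, and against mitochondrial rRNA, cannot be read from the labels. The rRNA values are therefore what the libraries held, not cell content, and the part of depletion in the difference was not tested. A list of nuclear-encoded RNAs, chosen as lacking a poly(A) tail or kept in the nucleus, had 7 genes past the filter, with a median of 0.27. Of these, 1 was 1.5-fold higher in sgTPST2, against 4.41% of all genes past the filter, and 1 lower, against 6.94%. The higher one was RMRP, at 72883 FPKM against 48069 in sgGFP. The lower one, RN7SL1, is listed at 0 in sgTPST2 and 84410 in sgGFP, at a locus that the authors' table marks as too deep to estimate. RPPH1 was at 51919 against 39626 in sgGFP, and RN7SL2 at 29377 against 24103. Of those outside the rule for named genes, RN7SK was at 120792 against 100268, MALAT1 at 482 against 411, and NEAT1 at 18.6 against 21.1.

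**Figure D2:**
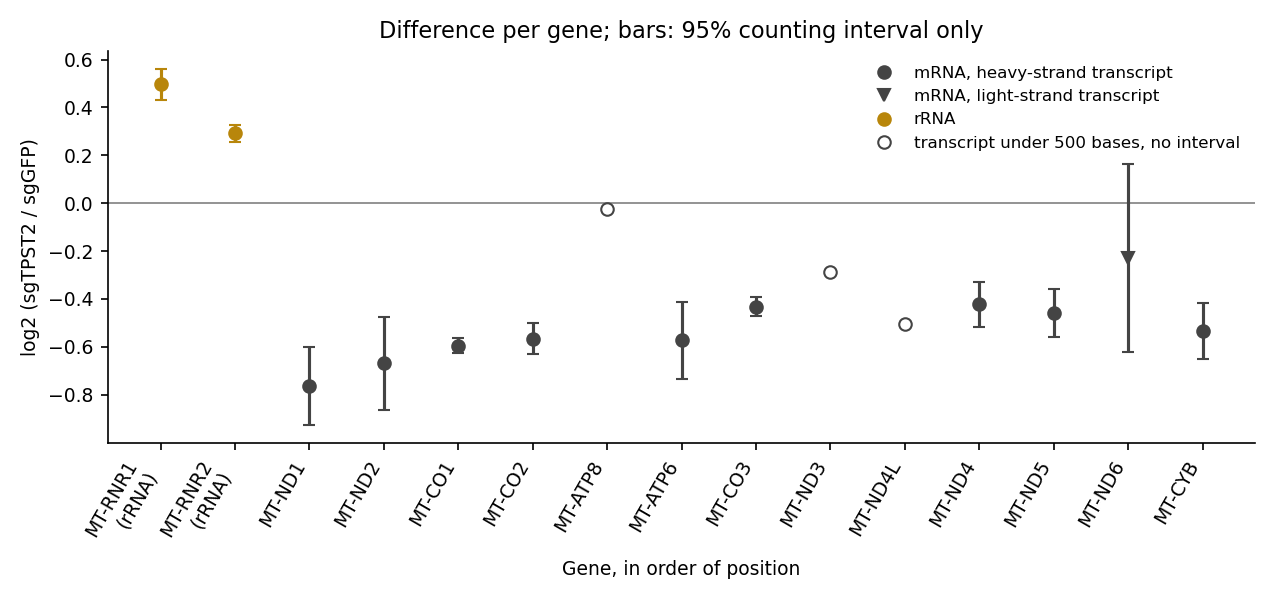
Difference log2(sgTPST2/sgGFP), without a pseudocount, of each gene in order of position; bars are 95% intervals from counting error only and open circles are transcripts under 500 bases, for which none is given. The rRNAs lie above 0, the mRNAs below it, and the bar of MT-ND6 spans 0.

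Along the heavy-strand precursor, the 3 mRNAs nearest to the rRNAs (MT-ND1, MT-ND2 and MT-CO1) had the 3 lowest differences. The counting intervals of their ratios overlap those of MT-CO2, MT-ATP6 and MT-CYB further along, which does not settle whether they differ. The intervals of MT-ND1 and MT-CO1 lie below those of MT-CO3, MT-ND4 and MT-ND5. That of MT-ND2 lies below that of MT-CO3 but overlaps those of MT-ND4 and MT-ND5. The differences of the 12 + strand mRNAs in order were -0.72 for MT-ND1, -0.62 for MT-ND2, -0.59 for MT-CO1, -0.56 for MT-CO2, -0.02 for MT-ATP8, -0.55 for MT-ATP6, -0.43 for MT-CO3, -0.28 for MT-ND3, -0.50 for MT-ND4L, -0.41 for MT-ND4, -0.44 for MT-ND5 and -0.52 for MT-CYB. Across these 12 genes, which share libraries and precursor, the difference and the distance from MT-TF, the first gene after the control region, had Spearman's rho of 0.61 and Pearson's r of 0.39 (0.75 and 0.67 over 11 genes without MT-ATP8). The levels themselves had no such order (rho 0.12 in sgGFP). Differences were lower where GC content was higher (rho -0.58, r -0.77 over 13 mRNAs; -0.47 and -0.64 without MT-ATP8).

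The coding sequences of mitochondrial mRNAs differ in how they end. In 6 of the 13 the annotated gene ends in T or TA, and the stop codon is completed by the poly(A) tail that is added after cutting, while MT-CO1 and MT-ND6 end in AGA and AGG, which mitochondria do not read as arginine. The last 24 bases of 5 annotated genes show the kinds of ending, with the letters of the stop in capitals. They are written as the mRNA reads (MT-ND6 from the - strand, the others from the + strand, GRCh38), and the mRNA itself may run on.
MT-ND1, chrM:4239-4262: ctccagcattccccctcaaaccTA
MT-CO3, chrM:9967-9990: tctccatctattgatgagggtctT
MT-ND5, chrM:14125-14148: ctaaccctactcctaatcacaTAA
MT-CO1, chrM:7422-7445: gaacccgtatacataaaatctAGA
MT-ND6, chrM:14149-14172: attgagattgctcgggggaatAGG

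The 6 mRNAs with an incomplete stop (MT-ND1, MT-ND2, MT-CO3, MT-ND3, MT-ND4 and MT-CYB) had a median difference of -0.47 and ranged from -0.72 to -0.28. The 7 with a complete one had a median of -0.50 and ranged from -0.59 to -0.02. These ranges overlap over most of their length. By complex, the median was -0.44 for complex I (7 genes), -0.52 for complex III (1 gene), -0.56 for complex IV (3 genes) and -0.29 for complex V (2 genes, -0.55 and -0.02).

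All 22 tRNA genes were listed at 0 in both libraries, and the authors' table marks them as not tested. In order of position they are MT-TF, MT-TV, MT-TL1, MT-TI, MT-TQ, MT-TM, MT-TW, MT-TA, MT-TN, MT-TC, MT-TY, MT-TS1, MT-TD, MT-TK, MT-TG, MT-TR, MT-TH, MT-TS2, MT-TL2, MT-TE, MT-TT and MT-TP, 14 on the + strand and 8 on the - strand. They are 59 to 75 bases long. None of the 1306 genes of the table whose longest transcript is at most 75 bases, 1284 of them outside the mitochondrial chromosome, had a value above 0 in either library, and the shortest gene with a value was 80 bases. The zeros of the tRNAs are thus shared by every gene of their length and give no level of the tRNAs. The shortest and the longest tRNA are shown to give a sense of this length (both + strand, GRCh38): MT-TS2, a serine tRNA (chrM:12207-12265), and MT-TL1, a leucine tRNA (chrM:3230-3304).
MT-TS2: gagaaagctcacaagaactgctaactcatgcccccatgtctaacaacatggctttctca
MT-TL1: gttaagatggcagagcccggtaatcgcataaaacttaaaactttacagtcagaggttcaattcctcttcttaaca

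**Figure D3:**
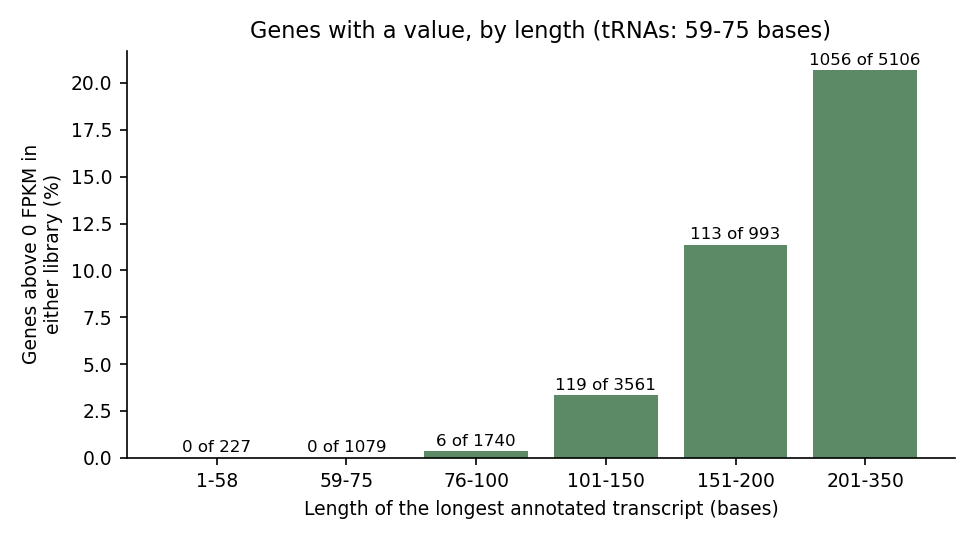
Share of genes with a value above 0 FPKM in either library, by the length of the longest annotated transcript in bases. At 59 to 75 bases, the length of the mitochondrial tRNAs, it was 0 of 1079 genes, and at 201 to 350 bases it was 1056 of 5106.

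Nuclear chromosomes carry old copies of mitochondrial DNA, and reads that match both places can be assigned to either. The most similar annotated copy of MT-ND1, MT-ND2, MT-CO1, MT-CO2, MT-ATP8, MT-ATP6 and MT-CO3 lies in 1 block of chromosome 1, at 97.6% to 99.1% identity over the aligned bases. Of all stretches of 50 bases, 49.5% of those in MT-CO1, 46.7% in MT-ATP6 and 43.6% in MT-ND2 also occur in other annotated transcripts, against 0% in MT-RNR1, MT-ND3 and MT-ND4L and 1.19% in MT-CYB. With stretches of 100 bases these shares were 27.9%, 11.9% and 26.1% for MT-CO1, MT-ATP6 and MT-ND2. No read length is stated in the labels. The copies themselves held little: of 407 genes named as nuclear copies, 351 were at 0 in both libraries and 1 reached 1 FPKM. That gene, MTATP6P1, was at 2.60 FPKM in sgTPST2 and 2.59 FPKM in sgGFP, or 11.0% and 7.39% of the MT-ATP6 value. The gene and its copy differ at 10 of 681 positions. The 60 bases with the most differences (3, in capitals; positions 116 to 175 from the 5′ end, + strand, GRCh38) show how close they are.
MT-ATP6, chrM:8642-8701: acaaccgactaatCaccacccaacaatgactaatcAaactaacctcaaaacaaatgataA
MTATP6P1, chr1:633811-633870: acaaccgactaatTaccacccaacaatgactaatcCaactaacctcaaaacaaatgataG

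Adding the value of the most similar copy to each mRNA, an alternative chosen after the data were seen, moved MT-ATP6 most, to -0.51 from -0.55, and each of the other mRNAs by less than 0.02. The 7 mRNAs with a copy in the chromosome 1 block had a median of -0.56 and the other 6 one of -0.42. The block copies the stretch next to the rRNAs, so its presence and position along the chromosome cannot be told apart.

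**Figure D4:**
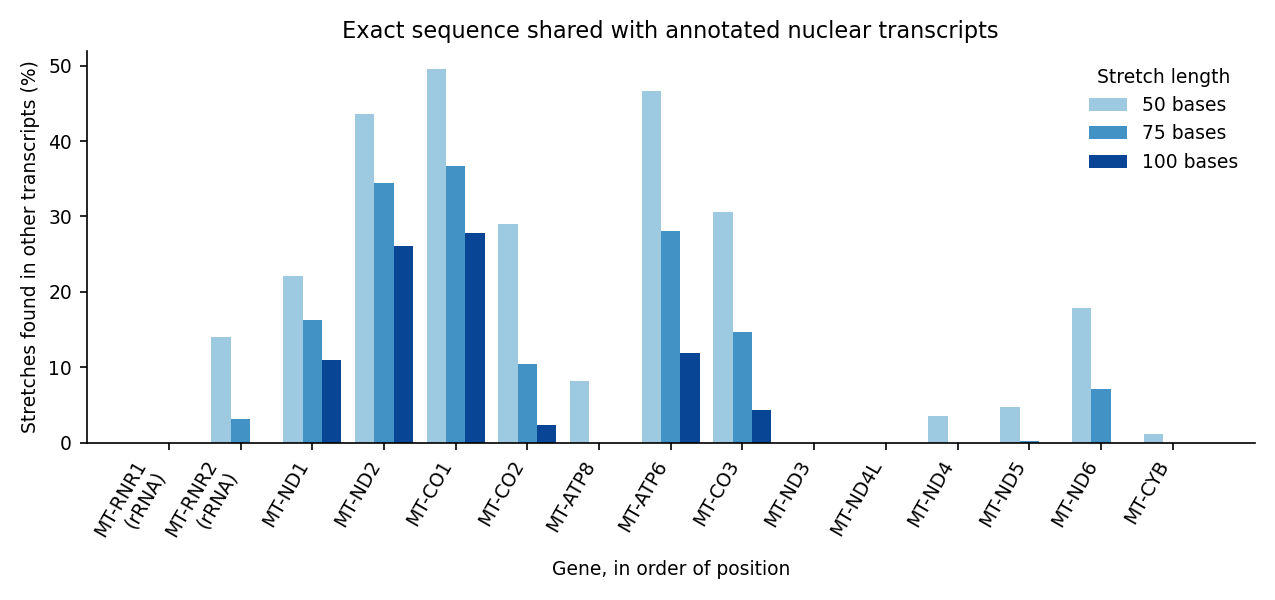
Share of all stretches of 50, 75 and 100 bases in each mitochondrial mRNA and rRNA that also occur in annotated transcripts of other genes, in percent. The shares at 50 bases are largest in MT-CO1 (49.5%), MT-ATP6 (46.7%) and MT-ND2 (43.6%).

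Nuclear genes of the same complexes centred close to 0. Of 78 nuclear-encoded respiratory chain and ATP synthase genes, 1 was at least 1.5-fold lower, against 6.94% of all genes, and 0 were higher, against 4.41% (median 0.03). The 12 nuclear genes of complex IV had a median of 0.03 and ranged from -0.07 to 0.22, while the 3 mitochondrial ones ranged from -0.59 to -0.43. In complex III, the 9 nuclear genes ranged from -0.09 to 0.19, and MT-CYB was at -0.52. In complex V, the 16 nuclear genes ranged from -0.30 to 0.29, with MT-ATP8 (-0.02) inside that range and MT-ATP6 (-0.55) below it. In complex I, the 37 nuclear genes, assigned by symbol, had a median of 0.03 but a wider range, from -1.06 to 0.55. The highest was NDUFA4L2, at only 1.15 FPKM in sgTPST2 and 0.473 FPKM in sgGFP. Its symbol alone placed it in complex I, while NDUFA4 was counted in complex IV. The next highest was NDUFB6, at 0.32. The symbol pattern does not match NDUFAB1, which was left out. The lowest was NDUFA9, a peripheral subunit, at 81.6 FPKM in sgTPST2 and 171 FPKM in sgGFP, which lies on the short arm of chromosome 12. The iron-sulfur subunit NDUFS1 was at 38.7 and 55.5 FPKM, and NDUFB3 at 120 and 150 FPKM; NDUFB6 was on the other side, at 54.6 and 43.7 FPKM.

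The genes that copy, transcribe and process mitochondrial DNA and its RNA had a median difference of 0.00, as had all genes past the filter, and ranged from -0.49 to 0.31. Of these 38 genes, 0 were 1.5-fold lower, against 6.94% of all genes past the filter, and 0 higher, against 4.41%. The largest difference was that of FASTKD2, an RNA-binding protein of mitochondrial RNA granules needed for the 16S rRNA, at 31.6 FPKM in sgTPST2 and 44.9 FPKM in sgGFP. Its relative FASTKD1 was at 17.9 and 23.5 FPKM, FASTK, which is needed for the MT-ND6 mRNA, at 78.0 and 62.5 FPKM, and the exoribonuclease PNPT1 at 29.2 and 36.9 FPKM. FASTKD2, NDUFS1 and NDUFB3 lie on chromosome 2 between 190 and 230 Mb, where 104 protein-coding genes had a median of -0.33. CREB1, a named gene of the regulator list below that is also on chromosome 2, went the other way (0.17). Of the 38 genes, FASTKD1 (-0.38), PNPT1 (-0.33), LRPPRC (-0.28) and MTERF4 (0.09) are on chromosome 2 as well. Of genes outside the rule for named genes, chosen for their roles, the mitochondrial RNA polymerase POLRMT was at 18.6 FPKM in sgTPST2 and 21.0 FPKM in sgGFP, and the DNA-packaging and promoter factor TFAM at 106 and 96.6 FPKM. LRPPRC, which with SLIRP protects mitochondrial mRNAs from decay, was at 118 and 144 FPKM, and SLIRP at 498 and 492 FPKM.

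Among 78 mitochondrial ribosomal protein genes, 2 were 1.5-fold lower, against 6.94% of all genes past the filter, and 0 higher, against 4.41% (median -0.04). Those lower were MRPL51, at 158 FPKM in sgTPST2 and 301 FPKM in sgGFP, and MRPS35, at 52.7 and 112 FPKM, and both lie on the short arm of chromosome 12. MRPL43 was at 77.1 and 54.0 FPKM, and MRPL19 at 45.8 and 61.5 FPKM. Of 11 regulators of mitochondrial content, 10 passed the filter (median -0.04). None of the 10 was 1.5-fold lower, against 6.94% of all genes past the filter, or higher, against 4.41%, which in so few genes says little about the list. The coactivator PPARGC1A was listed at 0 in both libraries, the nuclear receptor ESRRA was at 15.3 and 19.8 FPKM, PPRC1 at 17.1 and 14.6 FPKM, MYC at 114 and 130 FPKM, and CREB1 at 30.7 and 27.2 FPKM. The mitochondrial mRNA values, like those of the rRNAs, are what the libraries held, not cell content. In bulk RNA, fewer mitochondrial genomes and less RNA per genome cannot be told apart, and neither was tested.

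**Figure D5:**
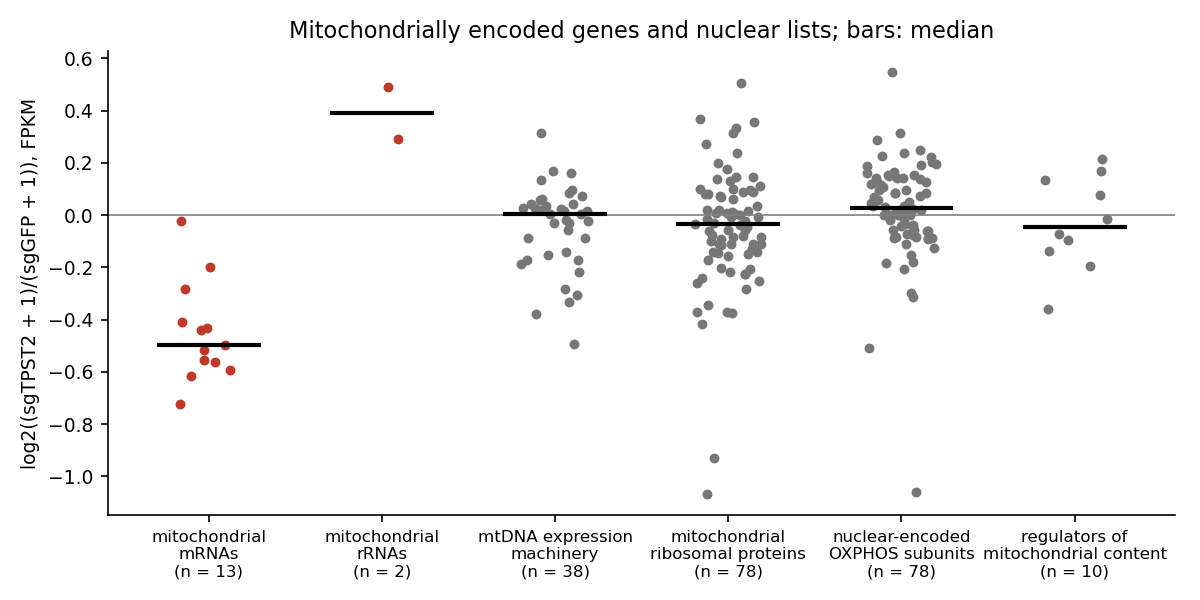
Difference log2((sgTPST2 + 1)/(sgGFP + 1)) of each mitochondrial mRNA and rRNA (red) and of nuclear genes past the filter (grey), with the median as a bar. The mRNAs centre on -0.50 and the nuclear lists on -0.04 to 0.03; the lowest grey points are MRPS35, NDUFA9 and MRPL51, on the short arm of chromosome 12.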

How the data were processed

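The submitters' processing notes name STAR, Cuffdiff and build hg38, and give no version, annotation or strand setting. The labels' protocols name silica-column RNA and a stranded total RNA kit. The deposited table gives 1 value per gene and library, with no unit in its header; the deposited values were read as FPKM because those notes name Cuffdiff. The deposited log2 fold change is log2 of (sgTPST2 + 1)/(sgGFP + 1). The authors' p-value, q-value and test score were taken as Cuffdiff's.

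All 58698 gene IDs matched GENCODE release 29, the source of coordinates, lengths and sequences. Genes with at least 1 FPKM in either library were kept. Fragments were inferred from steps in low values of genes with 1 transcript over 1500 bases. The step and a 180-base offset were fitted on these values. Of them, 91.97% of 959 in sgTPST2 and 90.8% of 1007 in sgGFP lay within 0.1 of a whole number. The fit was tried on simulated whole fragments without noise, which cannot show its error where reads are shared between genes. Intervals are exact binomial and Poisson, at 95%. Copies were found with blastn 2.17.0 (E-value 1e-10). Python 3.11.15 and scipy 1.17.1 were used. Named genes are all members and, per nuclear list, up to 4 with the largest absolute difference at a mean of at least 5 FPKM. Members and lists were chosen with earlier results of these data known.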

Additional observations from a re-analysis of the deposited data

How the results depend on the processing

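No paired analysis was possible because there are only 2 libraries, 1 per condition, and leaving a replicate out would leave no comparison. Of 128 recomputed values, 117 stayed within 0.05 on the log2 scale (medians), 5% (shares) or 1.5 times (counts). Some could not move: the tRNA median, shares under scaling or another pseudocount, and the mRNA median with copies added, which rests on MT-ND4L, whose copy is at 0. No median over 0.05 in size changed sign. Scaling to the same upper quartile, to the same sum with or without the mitochondrial chromosome, centring on the median gene, other pseudocounts and other filters moved the mRNA median only between -0.51 and -0.48 and the rRNA mean between 0.39 and 0.41. Scaling to the same sum without the chromosome 14 locus marked too deep, chosen after the data were seen, moved the median of all genes past the filter to -0.10. With it the mRNA median was -0.61, the rRNA mean 0.27 and 7 members were 1.5-fold lower. Medians were then -0.11 for the expression machinery, -0.15 for mitochondrial ribosomal proteins, -0.090 for nuclear respiratory chain genes and -0.13 for regulators. For RNAs without a poly(A) tail or kept in the nucleus the median was 0.15. The medians of the machinery and of the nuclear respiratory chain genes, 0.00 and 0.03 as deposited, thereby changed sign. At 1.5-fold, 2 members were lower after scaling to the same upper quartile or sum, with or without the mitochondrial chromosome. At 1.2-fold, 11 members were lower and 2 higher, and at 2-fold 0 were lower. Added after the data were seen, transcripts of at least 500 bases alone gave an mRNA median of -0.53. Depth limits MT-ND6, with about 109 and 112 fragments, and transcripts near 180 bases.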
